A study of Mus musculus and Homo sapiens with 22 samples.

Results

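The Hox cluster genes are the 39 protein-coding genes of the HoxA, HoxB, HoxC and HoxD clusters, with 11, 10, 9 and 9 genes, chosen by name from 21829 mouse and 19663 human protein-coding genes. They were examined in 3 lists of PROX1 binding sites mapped by CUT&RUN, in which an antibody directs a nuclease to cut the DNA next to its target. A gene was called bound when a peak summit, the base of strongest signal in a peak, lay within 1 kb of the transcription start site (TSS) of one of its protein-coding transcripts. Peaks were counted inside a cluster when the summit lay between the outermost ends of its Hox genes.

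Hox genes encode homeodomain transcription factors that give cells their position along the body axis and the limbs. Their order on the chromosome follows the order of the body regions in which they act, from anterior genes with low numbers to posterior genes with high numbers, and genes of the same number in different clusters are paralogs. Polycomb complexes keep the clusters silent where they are not needed, Trithorax complexes keep them active, and fibroblasts retain the Hox pattern of the body site they came from. PROX1, the mapped factor, is itself a homeodomain protein of the prospero type and is expressed in hepatocytes.

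The study compared endogenous PROX1 in liver with overexpressed PROX1 in cultured cells. The liver libraries, labelled as hepatocyte, came from nuclei of whole livers, with no purification of hepatocytes described, of untreated wild-type C57BL/6J mice aged 2 to 3 months, with an anti-PROX1 antibody (n = 5) or IgG (n = 5). Mouse embryonic fibroblasts (MEFs) were prepared from the distal parts of the limbs of C57BL/6N embryos (E13.5). These MEFs carried lentiviral rtTA and tetO-FLAG-mmProx1 and received doxycycline at 2 µg/ml for 2 days, with an anti-FLAG antibody (n = 3) or IgG (n = 3). Hep3B cells, an established human hepatocellular carcinoma line, carried lentiviral pLIX-Puro-hsPROX1, were selected with puromycin and were induced with the same dose for 2 days, with an anti-FLAG antibody (n = 3) or IgG (n = 3). Each antibody group was deposited as 1 pooled list, of 50159 peaks in liver, 40531 in MEFs and 14369 in Hep3B. Depth and replicate spread are unknown, so all values are descriptions of these lists without tests. Liver and the cultures differ, among other things, in tissue, in mouse strain or species, in antibody and in whether the factor was endogenous. These cannot be told apart. Between MEFs and Hep3B, cell type, species, transgene and drug selection cannot be told apart. The promoters of 6 of 6 hepatocyte markers, among them Alb and Apoa1, were bound in liver, 1 of 6 in MEFs and 0 of 6 in Hep3B. Those of 6 of 6 fibroblast markers, among them Col1a1 and Twist1, were bound in MEFs, 0 of 6 in liver and 1 of 6 in Hep3B.

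In liver, no Hox gene was bound by endogenous PROX1, and no peak lay in any of the 4 clusters. The liver list starts at a higher significance than those of the cultures, so unlisted liver sites are not shown to be unbound. In MEFs, 25 of 39 genes (64.1%) were bound and 68 peaks lay in the clusters. In Hep3B, 4 of 39 genes (10.3%) were bound, all in HoxA, and 15 peaks lay in the clusters. Of all protein-coding genes, liver PROX1 bound 26.7%, the MEF factor 55.4% and the Hep3B factor 44.5%. The Hox share was thus below that of all genes in liver and Hep3B and above it in MEFs, where the order depended on which peaks were counted.

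**Figure D1:**
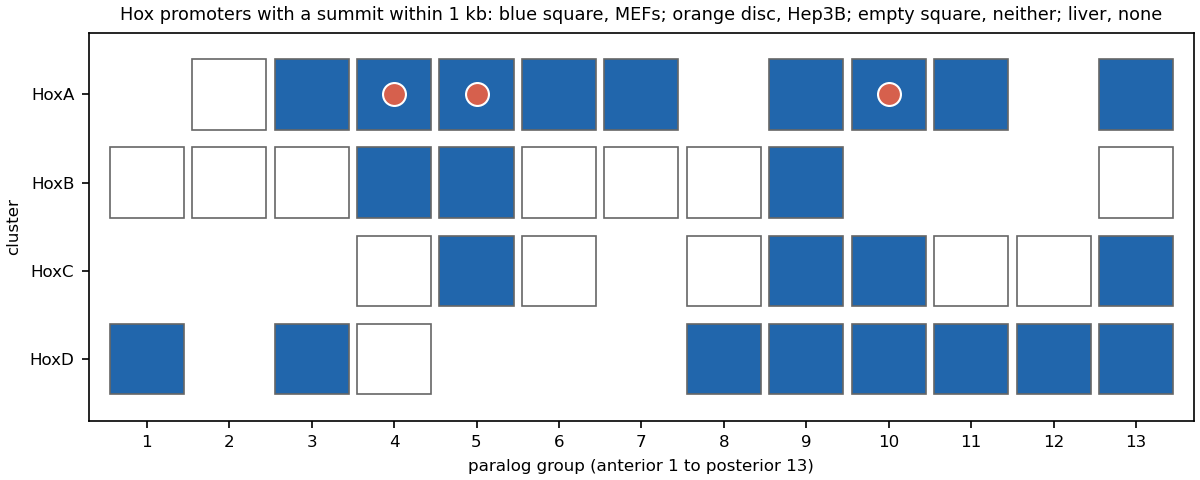
Bound Hox genes (PROX1 summit at most 1 kb from a TSS), by cluster (rows) and paralog group (columns); a square stands for 1 gene, and 38 of the 39 genes are drawn. Blue squares are genes bound in MEFs (24 of the 25 are drawn) and orange discs genes bound in Hep3B (3 of the 4 are drawn), each of which is also blue.

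The sites found in both cultures carry the sequences that a comparison of the lists turns on. When 250 bases on each side of a Hep3B summit were searched in the mouse cluster of the same name, all 15 Hep3B sites found a matching mouse sequence, with a median identity of 79.9%. Windows away from peaks were not searched, so these values cannot be set against the rest of the clusters. A MEF peak covered the base aligned to the Hep3B summit at 8 of these 15 sites. In HoxA it was 6 of 13 sites (46.2%), beside 27.5% of the bases of the mouse HoxA cluster that lay in MEF peaks.

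At the HoxA4 promoter, the summits were 48 bases apart, and 76 of 86 aligned bases (88.4%) were identical. Both windows hold the whole stretch between the summits and run 5′ to 3′ in the direction of the gene, with 11 bases around the summit of that list in capitals.
Hoxa4 (MEFs, mm10 chr6:52191929-52192017, minus strand): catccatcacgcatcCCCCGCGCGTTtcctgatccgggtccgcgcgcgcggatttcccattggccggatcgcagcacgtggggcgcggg
HOXA4 (Hep3B, hg38 chr7:27130943-27131031, minus strand): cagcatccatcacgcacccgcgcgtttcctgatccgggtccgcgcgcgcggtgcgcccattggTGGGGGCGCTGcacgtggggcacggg

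At HoxA5 the peaks sat next to the TSSs of the annotations, 25 bases upstream in mouse and 28 bases upstream in human, but these TSSs are not the same base on the alignment. The base aligned to the Hep3B summit lay 160 bases from the MEF summit and outside the MEF peak, within a match of 498 bases with 96.8% identity. In the other direction, the base aligned to the MEF summit lay inside the Hep3B peak, so the sites covered in each direction are not all the same. The 100 bases upstream of each TSS are shown because they hold the summits, with 11 bases around each in capitals. They are different stretches of the alignment and not counterparts of each other.
Hoxa5 (MEFs, mm10 chr6:52204588-52204687, minus strand): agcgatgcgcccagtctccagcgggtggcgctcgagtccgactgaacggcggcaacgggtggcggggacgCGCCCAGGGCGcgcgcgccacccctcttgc
HOXA5 (Hep3B, hg38 chr7:27143682-27143781, minus strand): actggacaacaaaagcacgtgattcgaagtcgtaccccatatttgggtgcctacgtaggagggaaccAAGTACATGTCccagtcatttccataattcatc

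Outside HoxA, the single HOXB and the single HOXC peak of Hep3B both matched a MEF peak. The HOXB site lay in an intron of HOXB6, with summits 27 bases apart and 53 of 68 aligned bases (77.9%) identical.
Hoxb6 (MEFs, mm10 chr11:96294693-96294760, plus strand): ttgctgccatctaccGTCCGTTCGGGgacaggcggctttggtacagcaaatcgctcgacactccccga
HOXB6 (Hep3B, hg38 chr17:48602702-48602769, minus strand): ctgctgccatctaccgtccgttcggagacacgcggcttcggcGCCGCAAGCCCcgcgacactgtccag
The HOXC site lay 2882 bases upstream of HOXC8 in an intron of a longer HOXC6 transcript, with summits 65 bases apart and 84 of 104 aligned bases (80.8%) identical.
Hoxc8 (MEFs, mm10 chr15:102987554-102987659, plus strand): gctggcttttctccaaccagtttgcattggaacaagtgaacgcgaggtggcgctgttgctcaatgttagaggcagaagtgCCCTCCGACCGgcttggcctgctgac
HOXC8 (Hep3B, hg38 chr12:54006083-54006187, plus strand): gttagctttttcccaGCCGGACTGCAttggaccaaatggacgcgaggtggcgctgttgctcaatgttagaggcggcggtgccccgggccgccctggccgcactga

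A further shared site lay in an intron of the longer HOXA3 transcripts, between HOXA6 and HOXA7, with summits 71 bases apart and 98 of 111 aligned bases (88.3%) identical.
Hoxa3 (MEFs, mm10 chr6:52211624-52211735, minus strand): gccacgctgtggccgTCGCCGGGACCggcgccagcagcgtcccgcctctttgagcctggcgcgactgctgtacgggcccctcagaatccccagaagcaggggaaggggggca
HOXA3 (Hep3B, hg38 chr7:27150869-27150982, minus strand): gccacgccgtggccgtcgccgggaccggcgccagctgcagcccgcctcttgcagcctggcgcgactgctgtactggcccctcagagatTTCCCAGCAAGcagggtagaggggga
Other shared sites included the Hoxa7 start region (51 bases apart) and the Hoxa10 start region (100 bases apart). In the reverse direction, 66 of 68 MEF sites found a matching human sequence, and a Hep3B peak covered 8 of them (12.1%). Of these 66 matches, 25 were in HoxA with 6 covered, 11 in HoxB with 1 covered, 11 in HoxC with 1 covered and 19 in HoxD with none covered. The HoxD count was fixed by the absence of any Hep3B peak in HOXD. Hep3B peaks held 8.97% of the bases of human HOXA, 0.172% of HOXB and 0.384% of HOXC.

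In liver, the absence of listed sites held for all 4 clusters, which cover 492 kb. The list as a whole had 1.84 peaks per 100 kb of the genome. The nearest liver summits lay 10023 bp above and 143088 bp below HoxA, 60942 bp above and 117352 bp below HoxB, and 50677 bp above and 167813 bp below HoxC. HoxD was the most isolated, with its nearest liver summits 696807 bp below and 790725 bp above. Within 100 kb of the clusters on both sides, 4 liver peaks were listed in 800 kb, or 0.500 per 100 kb. Percentiles rank the summit −log10 p, the significance the peak caller gave the summit, among all peaks of one list. The nearest liver peak, chr6:52270842-52271102 (mm10), stood at the 7.04th percentile of the liver list and lay 8119 bp from the nearest TSS of Hottip, a long noncoding RNA beyond Hoxa13.

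Of 12 neighbours of the clusters, some of them distant, 5 were bound in liver (41.7%, against 26.7% of all genes). These were Skap2, Hibadh, Snx10, Smug1 and Calcoco1, and their liver promoter summits all lay more than 100 kb from a cluster. The Skap2 summit lay 13 bp from a TSS and that of Smug1, a uracil DNA glycosylase, 57 bp. In contrast, Evx1 and Evx2, homeobox genes directly beside HoxA and HoxD, had their nearest liver summits 42595 bp and 687916 bp away. In MEFs 9 of the 12 neighbours were bound and in Hep3B 8, with Evx2 bound in MEFs alone and Evx1 in no list.

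None of the 68 MEF cluster peaks overlapped a liver peak by 1 bp or more, against 21.4% of all MEF peaks. The smallest distance from a MEF cluster summit to a liver summit was 10762 bp. A promoter peak in MEFs and none in liver was found for 25 of 39 Hox genes (64.1%) and 33.1% of all protein-coding genes. With no liver peak in the clusters, these counts follow from the MEF list alone. The liver list starts at an area of 500 (the area under a peak's significance curve) and a −log10 q (the adjusted significance) of 4.03, higher than the lists of the cultures, so a weaker liver site would not be listed. In the clusters, −log10 q was at most 4.33 in MEFs, with most peaks below 4.03, and at most 3.74 in Hep3B. Most cluster peaks of the cultures thus stood below the value at which the liver list starts. Values were not normalised between lists, so no further comparison by height was made.

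**Figure D2:**
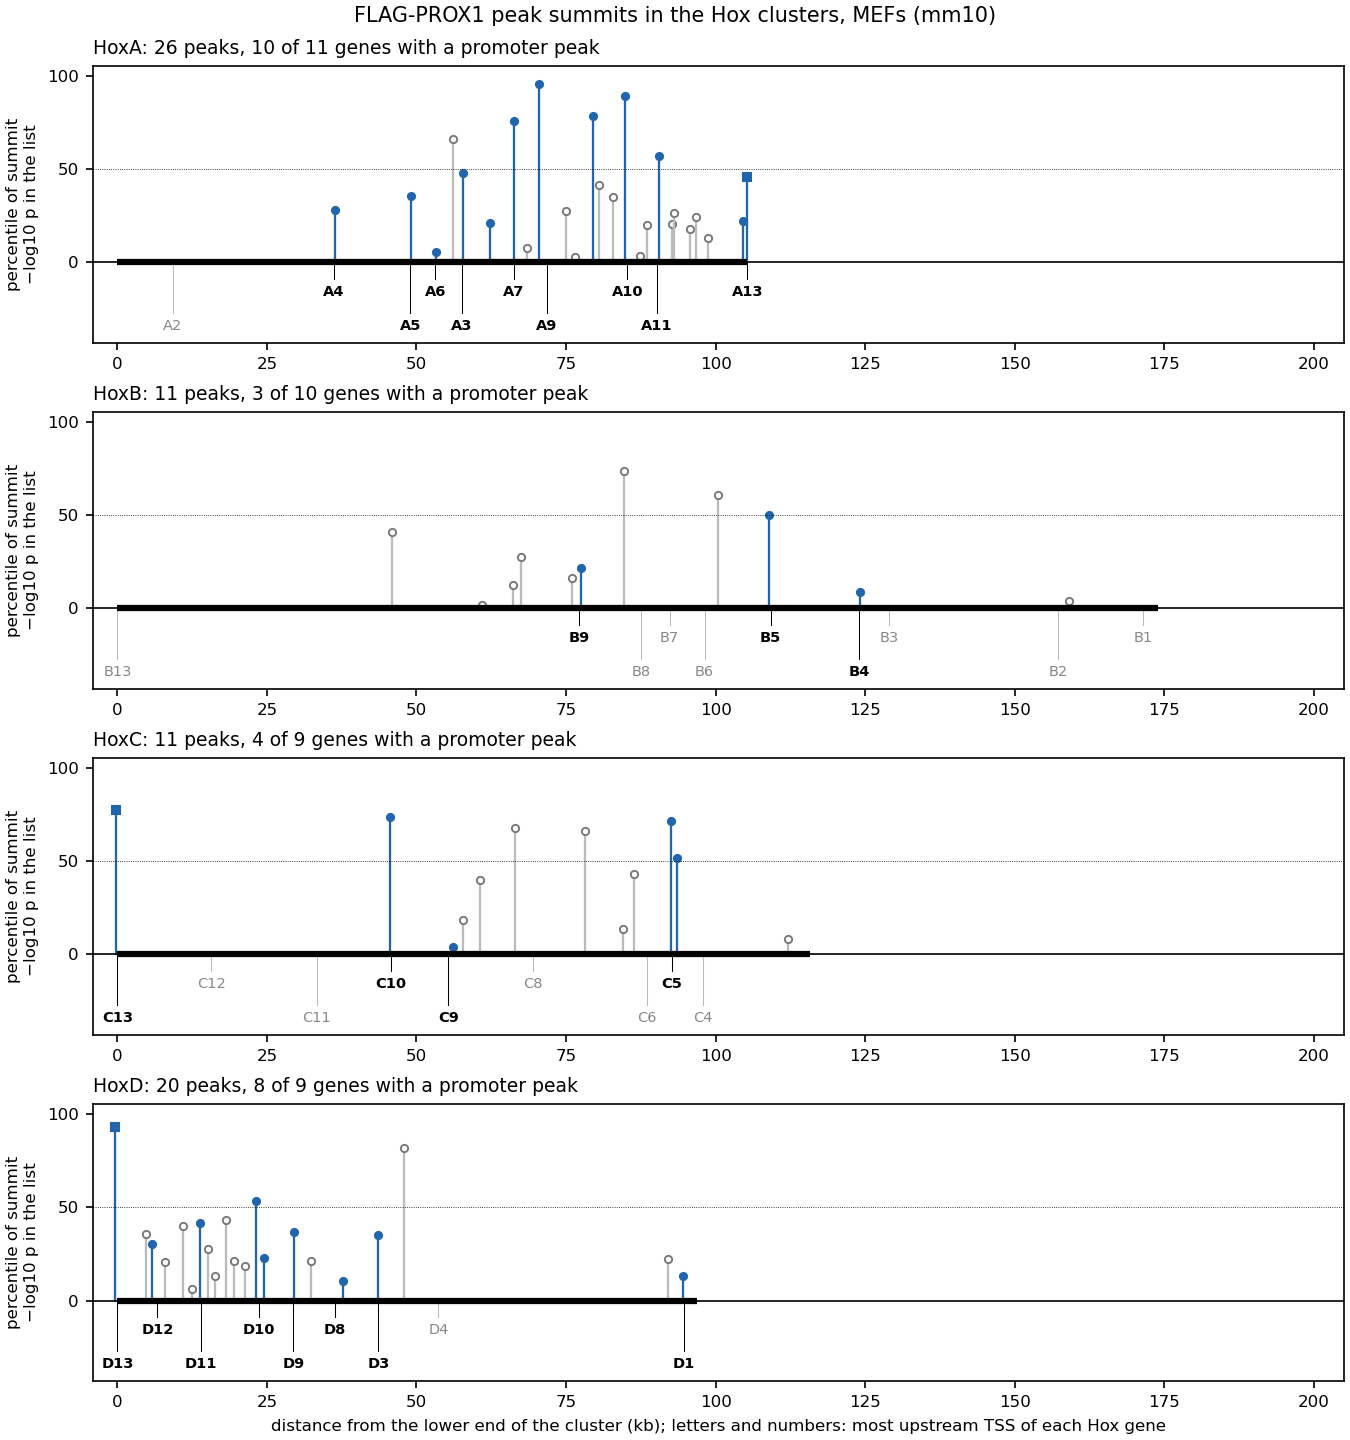
MEF summits along the 4 mouse clusters; the x axis gives kb from the lower end of the cluster (thick line) and the y axis the percentile of the summit −log10 p among all MEF peaks. Filled circles are summits within 1 kb of a Hox TSS and open circles other summits, filled squares are promoter summits just outside a cluster's edge, and bold names are bound genes; HoxA and the posterior side of HoxD carry most of the 68 peaks, of which 66 are drawn.

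In MEFs, the clusters differed from one another. HoxA was bound at 10 of 11 genes with 26 peaks, and HoxD at 8 of 9 genes with 20 peaks. HoxB was bound at 3 of 10 genes (Hoxb4, Hoxb5 and Hoxb9) with 11 peaks, and HoxC at 4 of 9 (Hoxc5, Hoxc9, Hoxc10 and Hoxc13) with 11 peaks. In peaks per 100 kb this was 24.7 in HoxA, 20.7 in HoxD, 9.50 in HoxC and 6.32 in HoxB. Peaks covered 27.5% of the bases of HoxA, 18.9% of HoxD, 6.27% of HoxC and 4.56% of HoxB. All 4 densities were above the 1.49 peaks per 100 kb of the whole genome, and together the clusters held 13.8 per 100 kb, 9.30 times that density. With 39 genes in 492 kb, the clusters are also denser in coding genes than the genome. Peak density was not set against gene density. The 100 kb on each side of the clusters held 25 MEF peaks, or 3.12 per 100 kb.

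Most MEF peaks in the clusters were not strong. Their median summit −log10 p was 5.15 (range 4.02 to 8.88), against 5.96 in the whole list, and 32 of 68 (47.1%) fell below its 25th percentile. Only 2 were above its 90th percentile, the Hoxa9 peak among them. They were wide, with a median of 747 bp against 646 bp, and 5 of 68 reached 2 kb, against 2.45% of the list. Of the 68 summits, 26 lay outside Hox genes, 25 in introns, 9 in UTRs, 5 in coding exons and 3 in exons of transcripts without coding sequence. Of the 68, 27 (39.7%) lay within 1 kb of a Hox TSS, against 32.0% of all MEF peaks near a coding TSS. The other 41 were 1140 to 31193 bp from the nearest Hox TSS, with a median of 2679 bp.

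By position, posterior genes were bound most often in MEFs. Of the posterior genes (numbers 9 to 13), 13 of 16 (81.2%) were bound, of the central genes (4 to 8) 8 of 15 (53.3%), and of the anterior genes (1 to 3) 4 of 8 (50.0%). Of all protein-coding genes, 55.4% were bound, near the central and anterior shares. Of coding genes with a promoter CpG content in the Hox range, described below, 82.4% were bound, near the posterior share. The posterior share differed between clusters. It was 5 of 5 genes in HoxD, 4 of 4 in HoxA, 3 of 5 in HoxC and 1 of 2 in HoxB. In HoxA the central genes were also all bound (4 of 4), whereas in HoxB and HoxC 2 of 5 and 1 of 4 were. By paralog group, all 4 genes of group 9, all 3 of group 10 and all 3 of group 5 were bound, and neither gene of group 2, which includes Hoxa2, a selector of branchial arch identity. Neighbouring genes share regulatory DNA and peaks, so genes of a cluster are not independent observations. The MEFs came from distal limbs, and whether this origin relates to the position of the bound genes was not tested.

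The posterior HoxA genes, which pattern the distal limb and the urogenital tract, held the strongest promoter site. The Hoxa9 peak, chr6:52224946-52227311 (mm10), was 2366 bp wide, with its summit 58 bp downstream of a TSS and a −log10 p of 8.88 (95.5th percentile). Hoxa10 had 2 promoter peaks, the stronger with a −log10 p of 8.03 (89.2nd percentile), 358 bp downstream of one TSS, and the other 73 bp upstream of a second TSS. Hoxa13 had its nearest summit 6 bp upstream of the TSS (5.83, 45.9th percentile), in one of 3 promoter peaks. Hoxa11 was bound 394 bp upstream of its TSS (6.24, 56.9th percentile), 17 bp from a TSS of its antisense RNA Hoxa11os. The 4 posterior HoxA promoters thus ranged from the 45.9th to the 95.5th percentile.

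Among the other HoxA genes, Hoxa7 was bound 19 bp downstream of a TSS (7.11, 75.7th percentile) and Hoxa3 178 bp upstream of a TSS of its longer transcripts, between Hoxa6 and Hoxa7 (5.89, 48.0th percentile). The Hoxa3 call rested on that TSS alone. Hoxa5 (5.46), Hoxa4 (5.18) and Hoxa6 (4.31) had weaker summits, at the 35.6th, 28.1st and 5.81st percentile. Hoxa2 was unbound, and it lay in the longest stretch of HoxA without a summit, 32.5 kb.

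In HoxD, Hoxd13, which patterns the digits, had the strongest promoter summit, with a −log10 p of 8.46 (93.0th percentile) 337 bp upstream of the TSS and therefore just outside the cluster's edge. The other bound HoxD promoters were weaker, from Hoxd10 (6.09, 53.1st percentile), Hoxd11 (5.65), Hoxd9 (5.49), Hoxd3 (5.43) and Hoxd12 (5.27) to Hoxd1 (4.65) and Hoxd8 (4.53, 10.3rd percentile). The peaks ran close together from Hoxd12 to Hoxd9, and 15 of the 20 HoxD peaks had a posterior gene as the nearest Hox gene. The strongest peak inside the cluster, chr2:74715725-74716650 (mm10), lay in an intron shared by Hoxd3 and Hoxd4 transcripts, 4250 bp from the nearest TSS (81.7th percentile). Above it, 44.1 kb held no summit up to the peaks at Hoxd1, and the coding TSS of the unbound Hoxd4 lay there.

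In HoxC, Hoxc13, which acts in hair and nails, was bound 223 bp upstream of its TSS (7.21, 77.5th percentile), also just outside the cluster's edge. The strongest peak inside the cluster, chr15:102966534-102966715 (mm10), was that of Hoxc10 (73.7th percentile, 164 bp upstream). It and Hoxc5 (6.88, 106 bp upstream) were the next bound genes, and Hoxc9 was weak (4.18, 3.84th percentile). Hoxc11 and Hoxc12 were unbound and lay in a stretch of 45.5 kb without a summit, which also holds the noncoding RNA Hotair. Hoxc4, Hoxc6 and Hoxc8 were unbound too. Between the genes, peaks named after their values were seen, at chr15:102987398-102987992 and chr15:102998986-103000084 (mm10), stood at the 67.9th and 66.1st percentile, on either side of Hoxc8.

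In HoxB the bound promoters were at Hoxb5 (5.96, 291 bp upstream, 49.9th percentile), Hoxb9 (4.96, 367 bp downstream, 21.6th percentile) and Hoxb4 (4.46, 214 bp downstream, 8.73rd percentile). Stronger HoxB peaks lay away from promoters, at chr11:96278529-96279103 (mm10) 2963 bp upstream of Hoxb8 (73.7th percentile) and in an intron of Hoxb6 (60.6th percentile). The 45.9 kb beside Hoxb13 held no summit. The anterior genes Hoxb1, Hoxb2 and Hoxb3, the first of which acts in the hindbrain, were all unbound, with 1 weak peak in a coding exon of Hoxb2 (4.12th percentile), as were Hoxb6, Hoxb7, Hoxb8 and Hoxb13.

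Just inside the limit of 1 kb lay Hoxd12 (891 bp) and Hoxd8 (850 bp), and just outside it Hoxc4 (1140 bp) and Hoxb2 (1791 bp). Counting summits in gene bodies added 5 genes, Hoxb2, Hoxb6, Hoxc4, Hoxc6 and Hoxd4, and left 9 of 39 without a summit at the promoter or in the body. The body counts depend on long annotated transcripts, such as one of Hoxc5 that spans 9 summits. Of the 25 promoter summits, 17 lay upstream and 8 downstream of the TSS, at a median distance of 178 bp.

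The standing of the Hox genes in MEFs depended on the strength of the peaks counted. Over all genes with a promoter peak, the strongest promoter summit stood at a median of the 74.7th percentile of the list, and over the 25 bound Hox genes at the 45.9th. With −log10 q of at least 2, 53.8% of Hox genes and 52.6% of all genes were bound. With an area of at least 500, it was 35.9% and 45.2%, and with the top 14369 peaks, the size of the Hep3B list, 20.5% and 34.0%. The 8 Hox genes that remained in that last count included Hoxa7, Hoxa9, Hoxa10, Hoxc5, Hoxc10, Hoxc13 and Hoxd13. In Hep3B, the Hox share was below that of all genes in each of these counts.

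**Figure D3:**
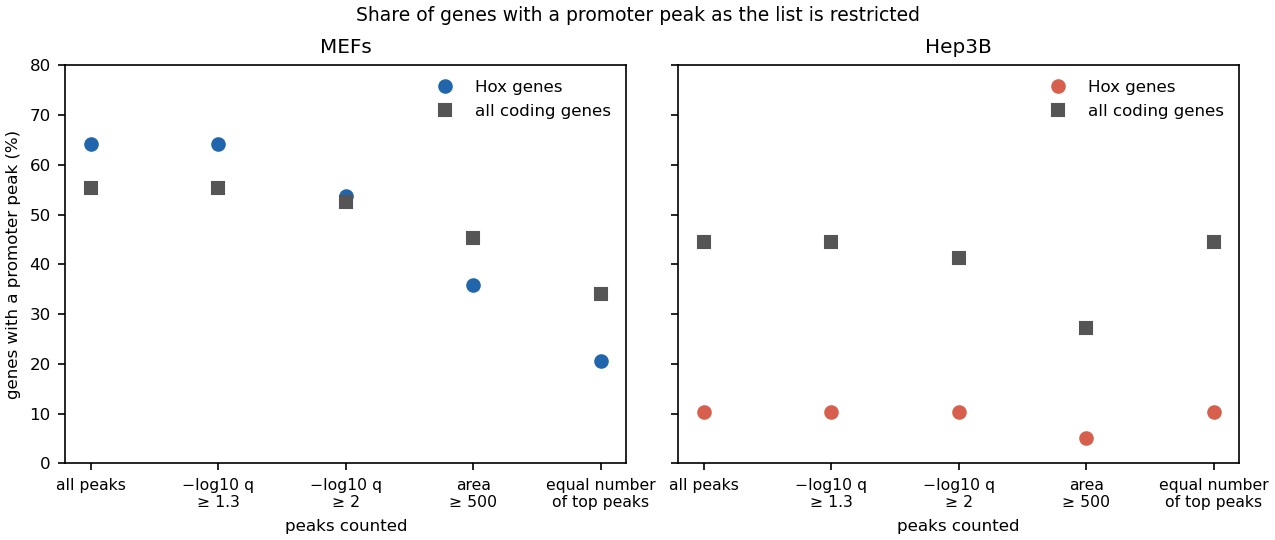
Percent of genes with a promoter peak (y axis) for the 39 Hox genes (coloured circles) and all protein-coding genes (grey squares) when fewer peaks are counted (x axis), in MEFs (left) and Hep3B (right). In MEFs the Hox share falls from 64.1% to 20.5% and passes below that of all genes, and in Hep3B it stays between 5.13% and 10.3%.

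In Hep3B, 13 of the 15 cluster peaks lay in HOXA, 1 in HOXB, 1 in HOXC and none in HOXD. The density in HOXA was 12.1 peaks per 100 kb, against 0.465 in the whole genome, and in HOXB 0.499 and in HOXC 0.853. Here too, peak density was not set against gene density. The HOXB peak was chr17:48602506-48602850 (hg38, 10.6th percentile) and the HOXC peak chr12:54005943-54006392 (6.72nd percentile). The bound genes included HOXA5 (−log10 p of 8.18, 87.4th percentile), HOXA10 (6.09, 300 bp downstream, 38.6th) and HOXA4 (5.67, 183 bp upstream, 25.3rd). HOXA5 acts in lung and breast development. All 4 genes bound in Hep3B were also bound in MEFs, so the number bound in both cultures was limited by the Hep3B count. Of 15736 genes with the same symbol in mouse and human, 45.7% were bound in both. A further 21 were bound in MEFs only, none in Hep3B only and 14 in neither.

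**Figure D4:**
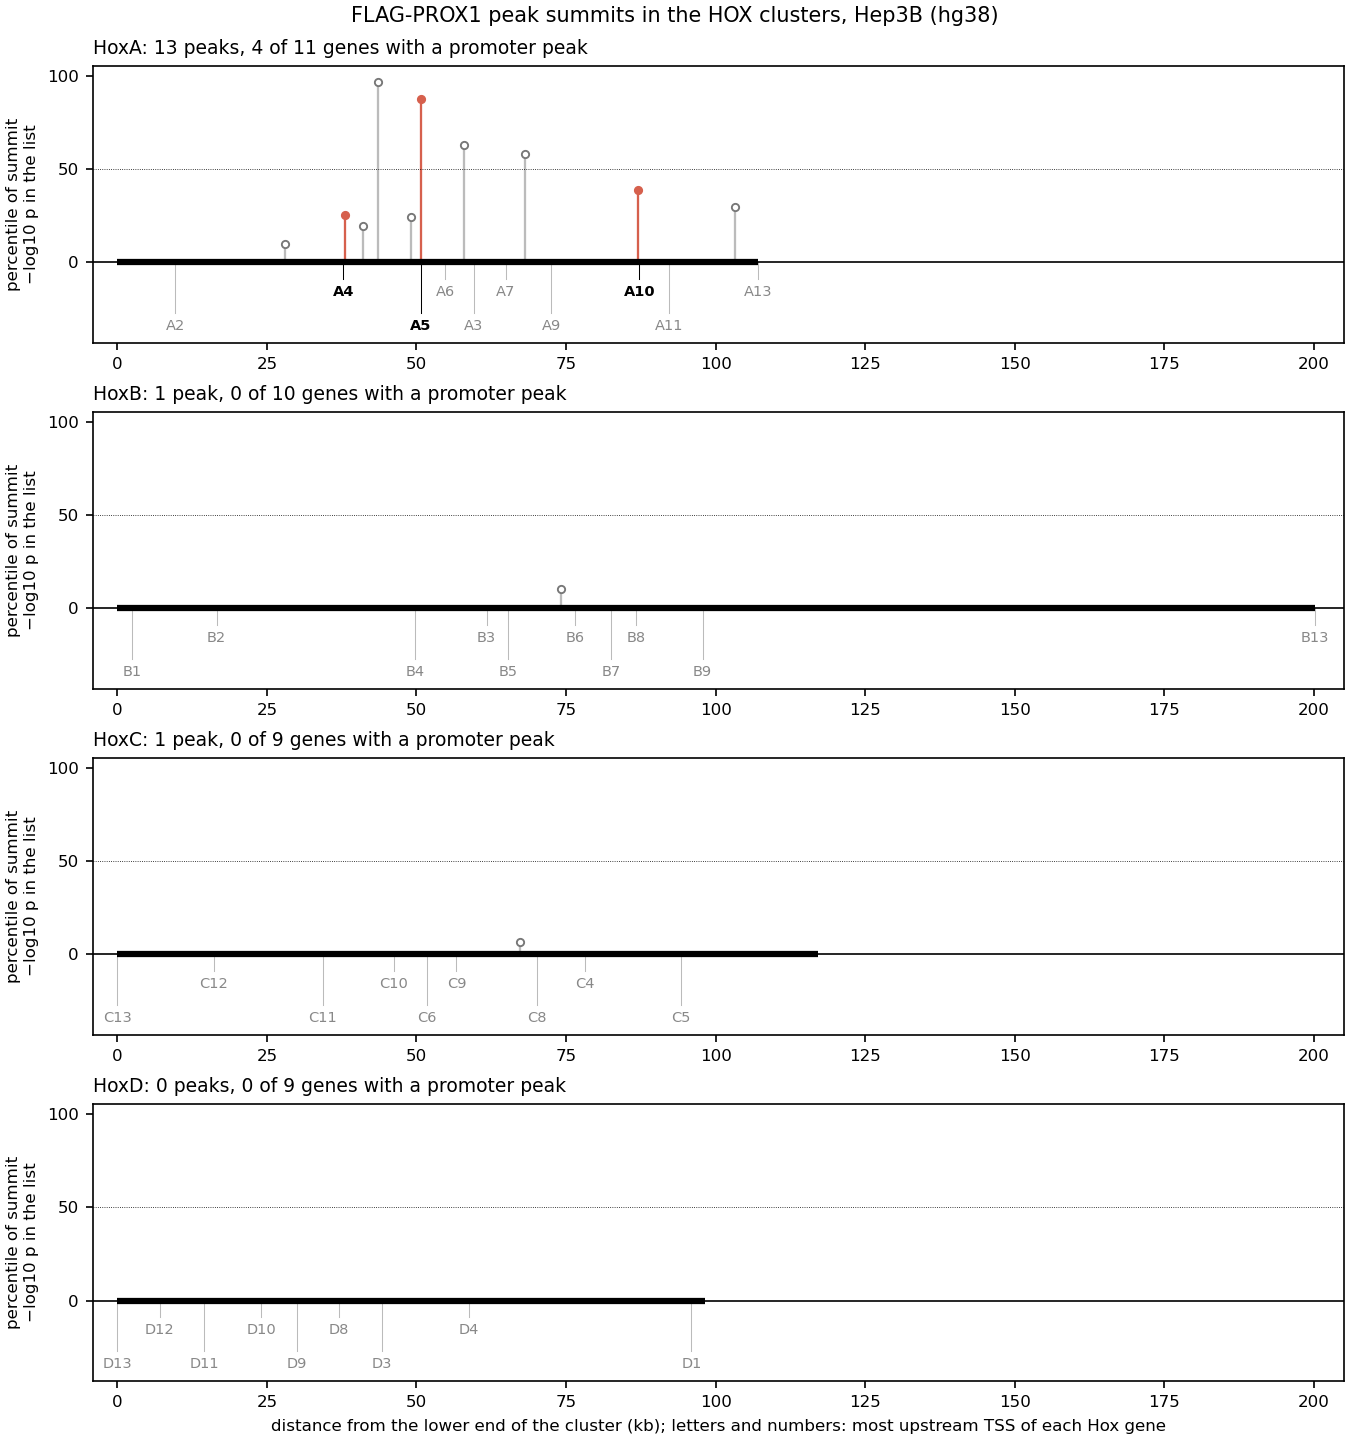
Hep3B summits along the 4 human clusters, drawn as for MEFs; x axis, kb from the lower end of the cluster, y axis, percentile of the summit −log10 p among all Hep3B peaks. HOXA holds 13 of the 15 peaks (10 of the 13 are drawn), the strongest of them at the 96.8th percentile and at no promoter, and HOXB and HOXC have 1 weak peak each.

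The strongest Hep3B peak of the clusters was at no coding promoter. It lay at chr7:27135560-27136832 (hg38), between HOXA4 and HOXA5 in an intron of the longer HOXA3 transcripts and of the noncoding RNA HOXA-AS3, with a −log10 p of 8.81 (96.8th percentile). The aligned mouse base was in no MEF peak, and the nearest MEF summit lay 5514 bp from it. The 11 peaks away from promoters were 1446 to 3911 bp from the nearest HOX TSS. HOXA3 was the gene nearest to the limit from outside, at 1446 bp. The posterior genes HOXA11 and HOXA9 had no summit at the promoter or in the body, and HOXA13 had 1 in its UTR 3911 bp from the TSS (29.6th percentile).

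The noncoding RNAs of the clusters were counted too, in part at the same peaks. In MEFs, 6 of 12 (50.0%) had a summit within 1 kb of a TSS, among them Hottip, Haglr, Hoxa11os, Mir196b and Mir615. In liver it was 0 of 12, and in Hep3B 1 of 11. Among all long noncoding RNA and microRNA genes the shares were 11.9% in liver, 18.6% in MEFs and 13.2% in Hep3B. With so few genes, the liver and Hep3B counts cannot be set apart from these shares. Of the microRNAs, Mir615 in an intron of Hoxc5 was the only one whose hairpin lay inside a MEF peak, with the summit 262 bp away (51.8th percentile). Mir196b, near Hoxa9, lay 413 bp from a weak summit (27.3rd percentile). The mature sequences from RefSeq (GRCm38.p6) are shown with the seed, bases 2 to 8, in capitals, and miR-196b shares its seed with miR-196a of HoxB and HoxC, whose genes had no summit within 1 kb.
mmu-miR-615-3p: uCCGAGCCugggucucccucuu
mmu-miR-196b-5p: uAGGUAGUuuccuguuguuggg
mmu-miR-196a-5p: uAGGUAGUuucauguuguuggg

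Promoters differ in their content of CpG dinucleotides, which is high at many housekeeping and developmental genes. Within 500 bp of the most upstream TSS, the ratio of observed to expected CpG had a median of 0.678 for mouse Hox genes and 0.561 for all genes. It was 0.704 for the 25 genes bound in MEFs (0.432 to 0.996) and 0.467 for the 14 others (0.256 to 0.891). A gene could be bound at a TSS other than the one measured, and 23 of the 25 were bound at the most upstream TSS. Of 25 Hox promoters with a ratio of at least 0.6, a cut chosen after the values were seen, 19 were bound, and of the 14 below it 6 were. In HoxB 4 of 10 promoters reached 0.6, in HoxC 5 of 9, in HoxA 9 of 11 and in HoxD 7 of 9. Of these, 2 were bound in HoxB, 2 in HoxC, 8 in HoxA and 7 in HoxD. Hoxb7, Hoxb8, Hoxc11 and Hoxc12 had ratios of 0.834, 0.741, 0.752 and 0.891 and were unbound.

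Among all coding genes with a CpG ratio between the quartiles of the Hox values (0.512 to 0.794 in mouse and 0.611 to 0.855 in human), 82.4% of 6927 were bound in MEFs, 35.2% in liver and 60.6% of 8238 in Hep3B. Of the 19 Hox genes in that range, 15 were bound in MEFs and none in liver, and in human 2 of 19 were bound in Hep3B. The median ratio of human HOX promoters was 0.704 and that of all human genes 0.698.

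Short motifs were counted within 50 bp of the summit on both strands and set against the same windows of the whole list. In MEFs, ATTGG, the reverse complement of a CCAAT box, occurred in 13 of 68 cluster windows (19.1%) and 16.3% of the list. CCGCCC, a GC box, occurred in 19.1% and 16.6%. The nuclear receptor site AGGTCA was in 3 of 68 windows (4.41%) and 6.00% of the list, ATCGAT in 1 of 68 (1.47%) and 0.323%, and the homeodomain core TAATTA and the PBX-HOX motif TGATTNAT in none, against 0.945% and 1.64%. The Hep3B cluster windows held ATTGG in 3 of 15 (20.0%, list 17.0%) and CCGCCC in 1 of 15 (6.67%, list 32.7%). None of the 15 held AGGTCA (list 4.99%), ATCGAT (0.306%), TAATTA (0.829%) or TGATTNAT (0.877%). In liver, where there was no cluster window, the AGGTCA share of the whole list was 16.5%.

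The PROX1 consensus was searched within 50 bp of the summit with up to 2 mismatches. It was met at 1 of 68 MEF cluster summits (1.47%, list 1.16%) and 0 of 15 in Hep3B (list 1.32%). The paper mapped a PROX1 motif over whole peaks, a different measure, so these shares cannot be set beside its count of peaks with a motif. The match lay between Hoxa11 and Hoxa13 at a weak peak (24.3rd percentile) and is shown in capitals.
Hoxa11 (MEFs, mm10 chr6:52252226-52252277, plus strand): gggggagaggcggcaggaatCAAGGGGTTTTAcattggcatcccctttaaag
The consensus of CTCF, a factor that bounds chromatin domains in Hox clusters, was met with up to 2 mismatches at 11 of 68 MEF summits (16.2%, list 23.5%) and 4 of 15 Hep3B summits (26.7%, list 16.0%). The closest match was at the site upstream of HOXA7, which aligns to the start of Hoxa7 and lay in a peak in both cultures, with 0 mismatches in human and 1 in mouse. The mouse match falls in a UTR and is shown with 8 bases on each side, and the match is in capitals.
HOXA7 (Hep3B, hg38 chr7:27161116-27161169, minus strand): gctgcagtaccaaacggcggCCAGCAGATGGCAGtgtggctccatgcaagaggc
Hoxa7 (MEFs, mm10 chr6:52221799-52221828, minus strand): agaaaattCCAGGAGATGGCAGtgtggctc
A match is a resemblance in letters, and CTCF was not measured here.

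Genes that work with or on the Hox clusters were counted in the same way, to be read beside the shares of all genes (26.7% in liver, 55.4% in MEFs, 44.5% in Hep3B). Of 9 Hox cofactors of the PBX, MEIS and PKNOX families, 3 were bound in liver (Meis1 and Pknox1 among them), 8 in MEFs and 3 in Hep3B, or 33.3%, 88.9% and 33.3%. Of 9 upstream regulators, CDX factors and genes of retinoic acid signalling among them, 3, 5 and 3 were bound (33.3%, 55.6% and 33.3%), with the retinoic acid receptor genes Rara and Rarb bound in all 3 lists and no Cdx gene in any. Of 15 Polycomb genes, which encode the silencers of the clusters, 5 were bound in liver (33.3%), 15 in MEFs and 9 in Hep3B (60.0%). Jarid2, Pcgf2 and Phc2 were among those bound in all 3 lists, and Ezh2, the histone methyltransferase, only in MEFs. Of 7 Trithorax genes and histone demethylases, 3, 7 and 6 were bound.

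Other homeobox genes that lie in clusters or pairs, such as the Dlx, Irx and Lhx genes, were counted as the group closest to the Hox genes. Of 46, 3 were bound in liver (6.52%), 29 in MEFs (63.0%) and 9 in Hep3B (19.6%). As for the Hox genes, these shares were below those of all genes in liver and Hep3B and above in MEFs. The 3 bound in liver were Irx1, Irx3 and Lhx1, with summits 370, 21 and 51 bp from a TSS.

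**Figure D5:**
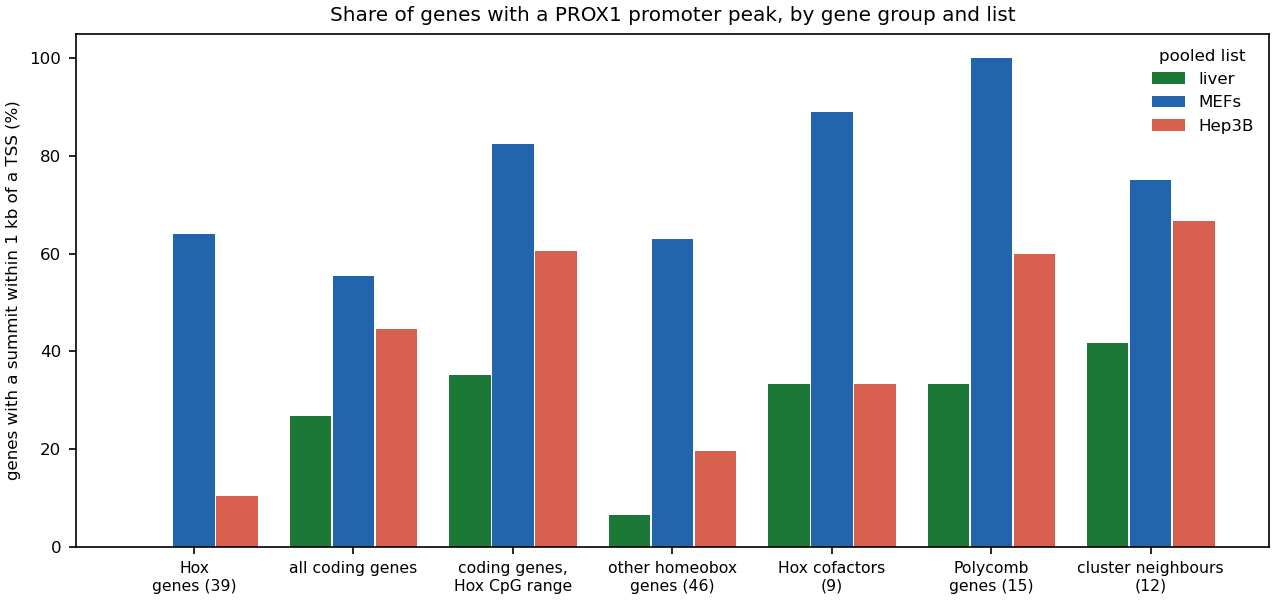
Percent of genes that were bound (y axis, from 0) in liver (green), MEFs (blue) and Hep3B (orange) for each gene group (x axis, with the number of genes in brackets for the groups chosen by name). Hox genes have no liver bar because none was bound, and among the groups plotted other homeobox genes have the next lowest liver share, 6.52%.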

How the data were processed

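PROX1 CUT&RUN libraries of 22 samples in 6 groups were used as 3 deposited lists, each pooling the libraries of one antibody group. Per the methods, the authors trimmed reads, aligned them to mm10 or hg38, removed duplicates and called consensus peaks with Genrich at a q threshold of 0.3, relative to IgG. The printed command names no control, so how IgG entered is unclear. The liver list starts at a much higher significance than this threshold and than the lists of the cultures, and the methods give no reason. The submitters' processing notes name Trim Galore 0.6.6, Bowtie2 2.4.2, Picard 2.23.9, SAMtools 1.10 and Genrich 0.6.1. The deposited files give, per peak, a score (0 to 1000), a signal (the area under the significance curve), and −log10 p and −log10 q of the summit, none normalised between lists.

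Summits were assigned to TSSs of protein-coding transcripts of GENCODE M21 (mouse) and GENCODE 44 (human). Windows were compared between species with BLAST+ 2.17.0, and sequences were read with pysam 0.24.0 (Python 3.11.15, pandas 2.3.3, Biopython 1.88, matplotlib 3.10.9). Scripts were tested on simulated data. Members and gene lists were chosen with earlier results of these data known, by gene name or family role. All 39 Hox genes were counted, with values for those with a promoter peak, apart from some items not reported here; coordinates were given for the strongest peak of each cluster and list, other peaks with coordinates being chosen after their values were seen; and genes of the other lists were counted and named as bound or unbound. Pooled lists without replicates or depth allow no test, SD or interval.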

Additional observations from a re-analysis of the deposited data

How the results depend on the processing

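Of 56 alternatives, 48 left the count within 1.5 times its main value. Of these, 20 concern liver counts of 0, which most of the settings could only keep at 0. With an area of at least 500, the bound Hox genes went from 25 to 14 in MEFs, from 4 to 2 in Hep3B and from 4 to 1 in both, and the cluster peaks from 68 to 26 in MEFs and from 15 to 5 in Hep3B. With each list limited to its top 14369 peaks, 8 genes and 12 cluster peaks remained in MEFs, and 2 genes were bound in both cultures. These settings count fewer peaks by construction. No paired analysis was possible because each list pools its libraries, and for the same reason no library could be left out. Depth and replicate spread are unknown, so an unlisted site is not shown to be unbound.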
